A study of Drosophila melanogaster with 36 samples.

Results

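Small RNA from the heads of old and young flies was compared at ZT4, where ZT (zeitgeber time) counts hours on the daily cycle of the flies. The comparison used the libraries whose labels give ZT 4, which were 6 of the 36 libraries of the series, 3 old and 3 young. Young flies were 5 days old and old flies 55 days old. All were Drosophila melanogaster females of the genotype w1118, a white-eyed laboratory strain, so the white mutation was common to both ages. Each library came from a pool of 400 whole heads, which contain brain, eyes, fat body and muscle, and fewer cells of a type cannot be told apart from less RNA per cell. The other 30 libraries, of 5 further time points, were used to ask whether an age difference was particular to ZT4. They also entered some alternative fits and the search for features with near-identical counts.

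MicroRNAs (miRNAs) are short RNAs cut from a hairpin precursor that lower the translation and the level of matching messenger RNAs. Each hairpin gives a 5p and a 3p arm, of which one is usually loaded into Argonaute as the guide while the other, the passenger arm, is mostly degraded. PIWI-interacting RNAs (piRNAs) are made from genomic clusters without such a hairpin and silence transposons, above all in the germ line. In fly heads, miRNAs are known to act in neuron survival, memory, metabolism and the daily clock.

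Old and young heads at ZT4 differed in 69 of 319 tested miRNA features, 21.6% of those tested. A feature is an arm that carries a miRBase name or one listed under an rr identifier, and what rr stands for is not given in the sources used here. Calls were made at an adjusted p under 0.05, and levels are CPM, counts relative to the scaled library size. In old heads 35 features were higher (11% of those tested) and 34 were lower (10.7%). Among the miRBase-named arms 15 rose and 34 fell out of 264, whereas of the 55 rr features 20 rose and 0 fell. Under every alternative setting that could test them, 16 features were called, 11 higher and 5 lower. Among miRBase-named arms of at least 10 CPM these were the falls of miR-2c-5p, miR-193-5p, miR-990-5p and miR-375-3p and the rise of miR-308-3p. The other rises were rr features, some of them near-identical, and the very scarce miR-9381-5p (2.68, adjusted p = 0.00355, mean of 0.745 CPM). Many other calls depended on single libraries. Of the called features, 46 had a mean of at least 10 CPM, and in all 46 the 3 old values did not overlap the 3 young ones. Over all tested features the old values lay wholly above the young ones in 18.5% and wholly below them in 20.4%.

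The median log2 difference over all tested features was -0.07, and the split of the calls depended on the scaling. With library totals alone the median was 0.13, and 41 features were called higher and 14 lower. With the libraries scaled to the larger total behind the deposited piRNA RPM, reads relative to a library total, the median was -0.67, and 17 were called higher and 151 lower. The directions given below are relative to the median over features, and miR-12-5p, miR-281-3p and miR-33-5p changed sign under the last scaling.

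How many members of a miRNA list were called was also counted with each library left out, an addition made after the data were seen. Over all features 18.2% were called without young replicate 1, 7.21% without young replicate 2, 31.7% without young replicate 3, 11% without old replicate 1, 9.4% without old replicate 2 and 10.3% without old replicate 3. These shares stand beside 21.6% with all 6 libraries.

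**Figure D1:**
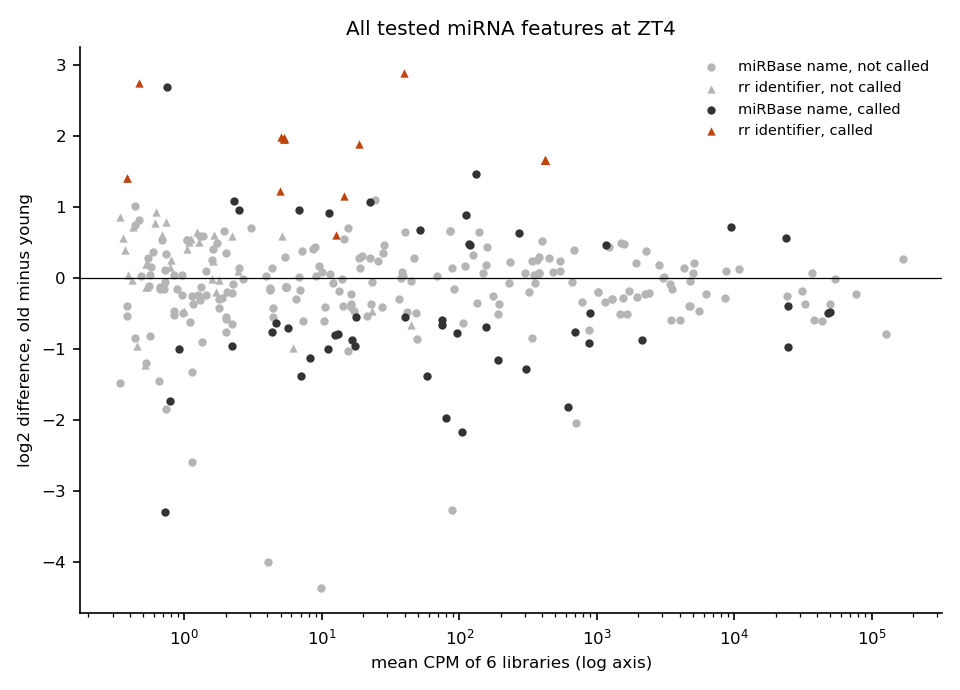
Log2 difference between old and young heads at ZT4 (vertical axis) against the mean CPM of the 6 libraries (horizontal log axis), 1 mark per tested miRNA feature, with called features in black (miRBase name) or orange (rr identifier). Called falls of miRBase-named arms span most of the range of levels, and the called rr features all lie above 0.

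Total miRNA counts were 18.0 to 29.1 M per library and total piRNA counts 231809 to 318840. Replicates of an age correlated across features with r of 0.979 to 0.996 on log2 CPM. Replicate counts were spread far beyond sampling noise in every pair (chi-square over its degrees of freedom of 672 or more). Nothing in the labels says whether the 3 pools of an age came from separate cultures, so the p-values measure the spread between these samples. Neuron miRNAs summed to 67768, 58390 and 52004 CPM in the young and to 43897, 40605 and 46022 CPM in the old libraries. Most of this sum was miR-133-3p, at a mean of 37747 CPM over the 6 libraries. The miR-124 arms had means of 194 CPM (5p) and 370 CPM (3p). Young replicate 3 stood apart in ovary miRNAs. Its 3 tested ovary arms summed to 524 CPM, against 19.3 and 17.1 CPM in the other two young and 14.2 to 24.2 CPM in the old libraries. Results are therefore also given without that library, and there 101 features were called (31.7%), 45 higher (14.1%) and 56 lower (17.6%). Of the 69 calls 66 were made there too, all in the same direction, while 3 were lost and 35 were added.

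Among arms of at least 10 CPM, the falls called under every setting run came from 4 hairpins. The scarcer miR-2489-3p, named after its values were seen, was the fifth such fall over the 18 settings that could test it, from 12.2, 10.2 and 11.5 CPM in young to 4.76, 4.72 and 5.98 CPM in old heads (-1.13, adjusted p = 0.00530). The arm miR-2c-5p is the passenger arm of miR-2c, one of the K box miRNAs, whose 3p arms recognise the K box motif in 3′ UTRs of Notch target genes. It measured 142, 111 and 127 CPM in young heads and 30.9, 38.3 and 27.1 CPM in old heads. The lowest young library thus had 111 CPM and the highest old library 38.3 CPM. The log2 difference was -1.98 (SE 0.19, adjusted p = 0.000517), and levels were 3.95-fold higher in young heads. Its hairpin lies at chr3R:15417744-15417845 (BDGP6, minus strand) in an exon of the long non-coding RNA lncRNA:CR45911. The 3p arm of the same hairpin, at a mean of 193 CPM, was not called (-0.51, adjusted p = 0.0566).

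The arm miR-193-5p gave 878, 1047 and 948 CPM in the young libraries and 242, 252 and 320 CPM in the old ones. The groups were far apart, with a log2 difference of -1.82 (SE 0.16, adjusted p = 0.000436). The hairpin lies at chr3L:21574014-21574121 (BDGP6, plus strand), outside annotated genes on its strand. Its 3p arm was much scarcer at 21.2 CPM and was not called (-0.54, adjusted p = 0.252). The arm miR-990-5p, from an intron of CG8910, had 491, 468 and 343 CPM in young heads and 210, 183 and 141 CPM in old heads. Young replicate 3 was the lowest young library but still lay above every old one. The difference was -1.29 (SE 0.21, adjusted p = 0.0101).

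The arm miR-375-3p, known in mammals from insulin-secreting islet cells, measured 298, 234 and 257 CPM in young heads. In old heads it measured 118, 115 and 120 CPM, which is less than any young value and hardly varied. The log2 difference was -1.16 (SE 0.14, adjusted p = 0.00257). The hairpin lies at chr2L:857542-857632 (BDGP6, plus strand) in an exon of lncRNA:CR45345. The falls of miR-2c-5p, miR-193-5p, miR-990-5p and miR-375-3p were called with any 1 of the 6 libraries left out and under all 19 alternative settings run.

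The arm miR-308-3p, which shares the K box seed and comes from an intron of the ribosomal protein gene RpS23, had the largest rise among miRBase-named arms of at least 10 CPM. It gave 52.7, 72.9 and 85.4 CPM in young heads and 193, 183 and 204 CPM in old heads. Every old library was above every young one. The log2 difference was 1.46 (SE 0.20, adjusted p = 0.00433), a 2.75-fold rise, and it too was called in all 19 settings. The passenger arm miR-308-5p rose less firmly, from 57.2, 76.2 and 105 CPM to 156, 144 and 137 CPM (0.88, SE 0.23, adjusted p = 0.0373). Its call ended without young replicate 2 (adjusted p = 0.119), old replicate 1 (0.165), old replicate 2 (0.143) or old replicate 3 (0.0986).

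The arm miR-13b-2-5p, the passenger arm of another K box hairpin, in an intron of CCT2 at chrX:9091230-9091299 (BDGP6, plus strand), measured 12.2, 14 and 16.9 CPM in young and 30.8, 31.1 and 28.4 CPM in old heads. The old values were close together and all above the young ones (1.06, SE 0.16, adjusted p = 0.00664). This call was made with any 1 library left out, and in 18 of 19 settings. Of the 20 tested K box arms 4 rose and 2 fell, with a median log2 difference of 0.05, against 21.6% called and a median of -0.07 over all features. Without young replicate 2, old replicate 2 or old replicate 3 the count was 2 up and 1 down. The other called members were miR-2a-2-5p (0.62, adjusted p = 0.0227) and miR-2b-1-5p (-0.96, adjusted p = 0.0227). Called in 13 of 19 settings each, both lost the call without young replicate 2 (adjusted p of 0.0951 each), old replicate 2 (0.121 and 0.0941) or old replicate 3 (0.0623 and 0.0771), and miR-2a-2-5p also without old replicate 1 (0.0930). Apart from miR-308-3p, the called members were passenger arms, which do not carry the K box seed.

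**Figure D2:**
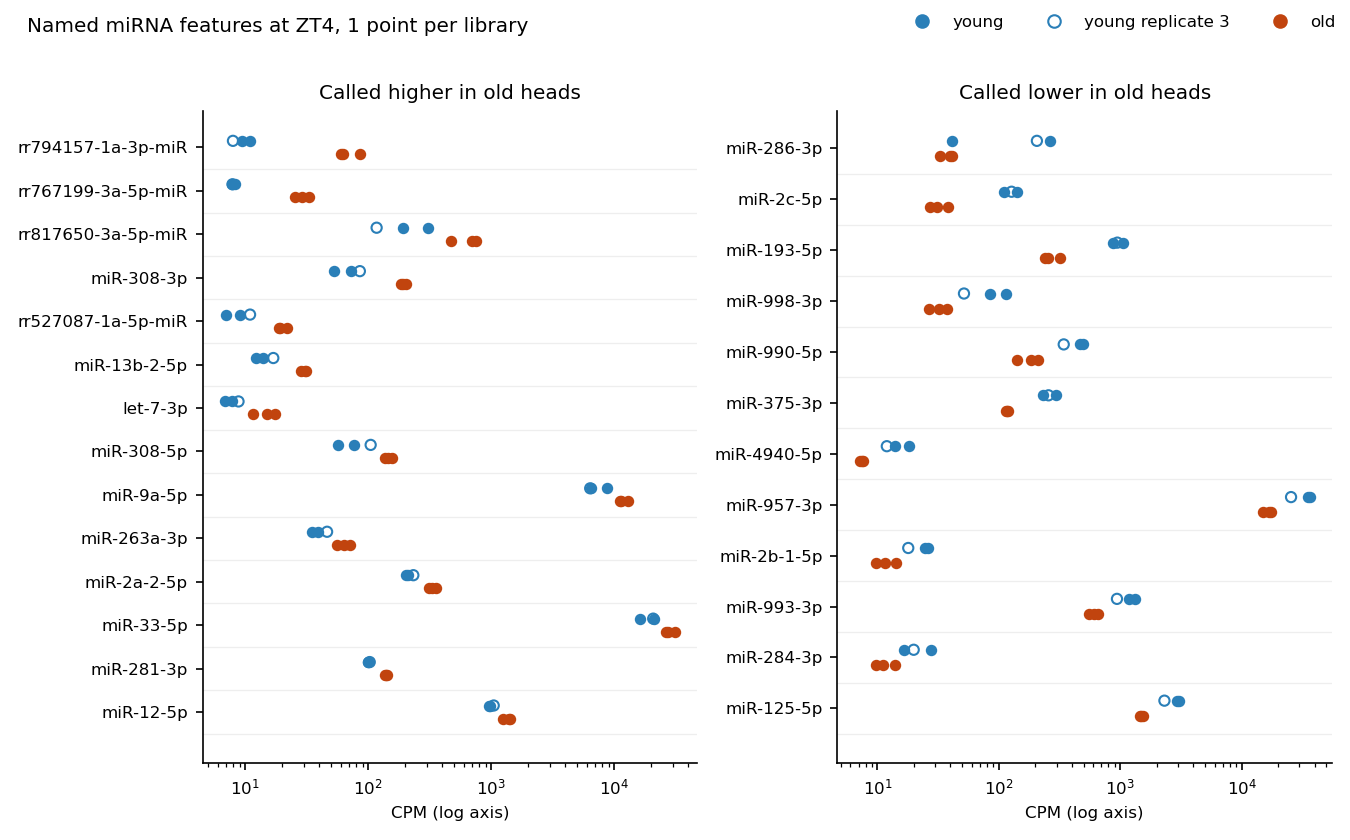
CPM (log axis) of the named called miRNA features in each of the 6 ZT4 libraries, with young libraries in blue, young replicate 3 as an open circle and old libraries in orange, ordered by the size of the log2 difference. The features were chosen to have no overlap between the groups. For miR-286-3p the lowest young library (41.6 CPM) lies next to the highest old one (41.0 CPM).

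The abundant arm miR-957-3p fell from 36301, 35426 and 25575 CPM to 14919, 17579 and 16973 CPM. Young replicate 3 was the lowest young library and still above all old ones (-0.98, SE 0.17, adjusted p = 0.0116). Its hairpin lies at chr3L:22518196-22518291 (BDGP6, minus strand), outside annotated genes on that strand. The arm miR-993-3p fell from 1318, 1187 and 941 CPM to 656, 552 and 607 CPM, again with no overlap (-0.93, SE 0.17, adjusted p = 0.0130). The scarcer miR-4940-5p fell from 18.4, 14.1 and 12.0 CPM to 7.54, 7.47 and 7.18 CPM (-1.0, adjusted p = 0.0151). These 3 arms were called in 17 or 18 of 19 settings. Leaving out young replicate 2 ended the calls of miR-957-3p (adjusted p = 0.0571) and miR-993-3p (0.0632), and leaving out old replicate 2 ended those of miR-993-3p (0.0517) and miR-4940-5p (0.0524).

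The arm miR-998-3p, encoded within an E2f1 intron and known for limiting E2F-dependent cell death, fell from 115, 84.2 and 51.7 CPM to 37.1, 26.5 and 32.3 CPM. The young libraries spread more than 2-fold while the old ones were close together (-1.38, SE 0.30, adjusted p = 0.0227). That call ended without young replicate 2 (adjusted p = 0.0885), old replicate 2 (0.0645) or old replicate 3 (0.0510). The arm miR-284-3p, whose miRNA is known to limit glutamate receptors at the larval neuromuscular junction, fell from 16.5, 27.8 and 19.9 CPM to 11.2, 9.83 and 13.8 CPM (-0.88, adjusted p = 0.0394). It was called in 5 of 19 settings and lost the call without young replicate 2 (adjusted p = 0.111), old replicate 1 (0.175), old replicate 2 (0.190) or old replicate 3 (0.0775). The far more abundant arm of that hairpin, miR-284-5p, at a mean of 8533 CPM, was not called (-0.28, adjusted p = 0.406).

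The let-7 complex is a single transcript that yields miR-100, let-7 and miR-125, which time the change from larva to adult and act in the adult nervous system. Of its 6 arms 1 rose and 1 fell, where 21.6% of all features were called. The guide miR-125-5p fell from 2916, 3029 and 2315 CPM to 1547, 1455 and 1492 CPM (-0.88, SE 0.14, adjusted p = 0.0101), a call that ended only without young replicate 2 (adjusted p = 0.0513) among the leave-outs. The passenger arm let-7-3p rose from 6.87, 7.75 and 8.82 CPM to 14.9, 11.6 and 17.5 CPM (0.91, SE 0.20, adjusted p = 0.0227), and lost the call without young replicate 2 (0.0885), old replicate 1 (0.0924) or old replicate 3 (0.0911). The guide let-7-5p, at a mean of 24351 CPM, was not called (-0.26, adjusted p = 0.414). Nor was miR-100-3p called, although its old values of 32.9, 36.5 and 28.9 CPM lay above the young values of 23.4, 24.9 and 22.9 CPM (0.47, adjusted p = 0.0584).

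The hairpins of miR-34 and miR-277 share the transcript lncRNA:CR43459 and are clustered with miR-317. miR-34 is known to protect the ageing brain and miR-277 to control the breakdown of branched-chain amino acids. Of 6 arms 2 fell and 0 rose, with a median log2 difference of -0.36, and 10.7% of all features were called lower. The passenger arm miR-34-3p fell from 787, 1036 and 783 CPM to 518, 471 and 551 CPM (-0.76, SE 0.16, adjusted p = 0.0227). The guide miR-277-3p fell from 27986, 27841 and 28003 CPM to 19923, 21367 and 21996 CPM (-0.41, SE 0.11, adjusted p = 0.0373). Both groups of miR-277-3p were narrow and apart, yet the call was made in 3 of 19 settings, and that of miR-34-3p in 11. Without young replicate 2, old replicate 1, old replicate 2 or old replicate 3 neither arm was called, with adjusted p of 0.0623 to 0.151 for miR-34-3p and 0.120 to 0.244 for miR-277-3p, which was lost without young replicate 1 too (0.0651). The guide miR-34-5p had overlapping groups, 59792, 62958 and 46109 CPM against 48535, 46404 and 35753 CPM (-0.37, adjusted p = 0.181). Without young replicate 3 it was called lower (-0.49, adjusted p = 0.0443).

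In the Gmap intron that encodes miR-283, miR-304 and also miR-12, 2 of 6 arms rose and 0 fell, where 11% of all features were called higher. The guide miR-12-5p rose from 980, 951 and 1045 CPM to 1253, 1429 and 1398 CPM (0.45, SE 0.12, adjusted p = 0.0412), and the scarce miR-12-3p from 1.58, 1.72 and 1.74 CPM to 2.68, 3.46 and 3.67 CPM (0.96, SE 0.19, adjusted p = 0.0193). Scaled to the total behind the piRNA RPM, the difference of miR-12-5p was -0.14. Both calls were lost without young replicate 2 (adjusted p of 0.149 and 0.0632), old replicate 2 (0.190 and 0.0795) or old replicate 3 (0.138 and 0.0770), and that of miR-12-5p also without young replicate 1 (0.0596) or old replicate 1 (0.125). The arm miR-304-3p was not called (0.37, adjusted p = 0.107).

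Mirtrons are miRNAs whose hairpin is a short intron, released by splicing in place of Drosha cleavage. Of 21 tested mirtron arms 8 fell and 0 rose, with a median log2 difference of -0.35, against 10.7% called lower and a median of -0.07 over all features. The count rested on single libraries, with 0 called without old replicate 2, 1 without old replicate 1, 1 without young replicate 2, 3 without old replicate 3, 5 without young replicate 1 and 8 without young replicate 3. The 8 kept their sign under every scaling tried. With library totals alone the median of the list was -0.08. The arm miR-1004-3p fell from 8.21, 10.1 and 12.4 CPM to 3.92, 3.08 and 4.78 CPM (-1.38, SE 0.23, adjusted p = 0.0101), a call that ended only without old replicate 2 (adjusted p = 0.0520) among the leave-outs. The arm miR-1010-5p, from an intron of SKIP, fell from 15, 16.5 and 16.4 CPM to 8.14, 8.10 and 11 CPM (-0.81, adjusted p = 0.0227) and lost the call without young replicate 2 (0.0793), old replicate 1 (0.165) or old replicate 2 (0.160). The very scarce miR-1016-3p fell from 0.789, 1.35 and 1.5 CPM to 0.347, 0.380 and 0.359 CPM (-1.74, adjusted p = 0.0171). It was not called without young replicate 2 (0.0688), old replicate 1 (0.0652), old replicate 2 (0.0645) or old replicate 3 (0.0623).

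Among 25 arms linked to the clock and to rest and activity, 2 rose and 3 fell, with a median log2 difference of -0.37, where 21.6% of all features were called. Besides miR-375-3p and let-7-3p these were miR-276a-3p, miR-276b-3p and miR-263a-3p. The arm miR-276a-3p, known to act on the clock gene timeless and in odour memory, fell from 56371, 56190 and 61122 CPM to 38817, 42300 and 42950 CPM (-0.49, SE 0.11, adjusted p = 0.0245). Its paralog miR-276b-3p has nearly the same sequence and nearly the same values (-0.50, adjusted p = 0.0227), so reads may have been split between them. Both were called in 7 of 19 settings and not without young replicate 2 (adjusted p of 0.0951 each), old replicate 1 (0.180 and 0.174), old replicate 2 (0.190 each) or old replicate 3 (0.0966 and 0.0957). Without young replicate 3 the counts in the list were 6 higher and 7 lower. They were 0 higher and 1 lower without young replicate 2, old replicate 1 or old replicate 3, and 1 higher and 1 lower without old replicate 2.

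Among 13 arms of eye and sense organs 2 rose and 1 fell, where 21.6% of all features were called. Without young replicate 3 the counts were 4 higher and 1 lower, without young replicate 2 or old replicate 3 they were 0, and without young replicate 1, old replicate 1 or old replicate 2 they were 1 higher and 0 lower. The guide miR-9a-5p, which keeps sense organ precursors in check, rose from 8768, 6428 and 6358 CPM to 11058, 11388 and 12806 CPM (0.71, SE 0.17, adjusted p = 0.0275). Its call was lost without young replicate 2 (adjusted p = 0.111) or old replicate 3 (0.0506), and it was the only one called of the 8 tested arms of the miR-9/79 family. The arm miR-263a-3p, from the hairpin that protects sensory bristle cells from death, rose from 34.7, 38.7 and 46.3 CPM to 55.8, 64.0 and 70.7 CPM (0.67, SE 0.17, adjusted p = 0.0339), and was called in 9 of 19 settings. It passed among the leave-outs only without young replicate 3 (adjusted p = 0.0132), and the adjusted p in the other leave-outs was 0.0637 to 0.156. Its guide miR-263a-5p varied between replicates, 51266, 37088 and 18892 CPM against 49404, 33011 and 29690 CPM, and was not called (0.06, adjusted p = 0.926).

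The photoreceptor miRNA miR-7-5p, 1035, 949 and 1149 CPM in young and 674, 805 and 735 CPM in old heads, had the least settled call (-0.50, SE 0.14, adjusted p = 0.0446). It was lost with any 1 of the 6 libraries left out, with adjusted p of 0.0577 to 0.242, and was the only named called feature of at least 10 CPM lost without young replicate 3 (0.0636). Among 18 neuron arms 3 fell and 0 rose, with a median of -0.21, where 10.7% of all features were called lower. Without young replicate 3, 5 were lower and 1 was higher. The 3 called with all 6 libraries were miR-133-5p (-0.55, adjusted p = 0.0264), miR-219-3p (-0.64, adjusted p = 0.0467) and miR-932-3p, encoded inside the synaptic gene Nlg2 (-0.60, adjusted p = 0.0488). The calls of the 3 arms held in 7, 5 and 4 of the settings, and none of them passed without young replicate 2 (adjusted p of 0.0951, 0.121 and 0.145), old replicate 1 (0.225, 0.221 and 0.134), old replicate 2 (0.210, 0.207 and 0.190) or old replicate 3 (0.109, 0.0928 and 0.187). Without young replicate 1, miR-219-3p (0.101) and miR-932-3p (0.0799) were lost too, which left 1 call in the list. Each of the 3 was the scarcer arm of its hairpin, at a mean of 40.1, 4.63 and 75.1 CPM. The abundant arms were not called, with -0.60 for miR-133-3p (37747 CPM, adjusted p = 0.0607). For miR-219-5p (44.6 CPM) the difference was -0.05 (adjusted p = 0.930) and for miR-932-5p (665 CPM) -0.07 (adjusted p = 0.763).

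Of 14 arms of fat body and metabolism 1 rose and 1 fell, where 21.6% of all features were called. The guide miR-33-5p, encoded in an intron of the lipid regulator SREBP, rose from 20802, 16227 and 20667 CPM to 27249, 30928 and 26415 CPM (0.55, SE 0.15, adjusted p = 0.0373), but read -0.035 when scaled to the total behind the piRNA RPM. Its call was lost without young replicate 2 (adjusted p = 0.120), old replicate 1 (0.0876), old replicate 2 (0.151) or old replicate 3 (0.0770). The passenger arm miR-33-3p overlapped between ages and was called only without young replicate 3 (1.53, adjusted p = 0.0389). The arm miR-281-3p rose from 100, 98.7 and 103 CPM to 137, 138 and 141 CPM (0.46, SE 0.12, adjusted p = 0.0352) and read -0.13 under that same scaling. Among the leave-outs it passed only without young replicate 3 (0.0415), with adjusted p of 0.0560 to 0.174 in the others. Among 12 arms linked to immune regulation 3 rose and 1 fell, namely the pair of miR-308 arms and let-7-3p up and miR-34-3p down, and among 20 arms linked to ageing and neuroprotection 1 rose and 3 fell. Both counts stand beside 21.6% over all features. Without young replicate 2, 1 immune arm was higher and 0 ageing arms were called, and without old replicate 1 or old replicate 3 it was 1 immune arm higher and 1 ageing arm lower. Without old replicate 2, 2 immune arms were higher, and of the ageing arms 1 was higher and 1 lower.

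Of the 10 most abundant arms 2 were called, the near-identical paralogs miR-276a-3p and miR-276b-3p, where 21.6% of all features were called. The most abundant, miR-8-3p, which acts in fat body growth control, had 142493, 149682 and 167816 CPM in young and 162511, 190660 and 198242 CPM in old heads and was not called (0.26, adjusted p = 0.187). The germline-linked miR-184-3p had 227829, 161993 and 91130 CPM in young heads against 97385, 94532 and 86372 CPM in old heads. Young replicate 3 lay among the old libraries, and the difference was not called (-0.79, adjusted p = 0.115), whereas it was without that library (-1.07, adjusted p = 0.00250). Of the leave-outs, that of young replicate 3 was also the only one to give calls for miR-133-3p (-0.60, adjusted p = 0.0607 with it, and -0.75, adjusted p = 0.00864 without it) and miR-999-3p (-0.60, adjusted p = 0.116, and -0.75, adjusted p = 0.0331). The growth and survival miRNA bantam-3p (-0.23, adjusted p = 0.359) and miR-14-3p, known from fat metabolism and cell death (-0.02, adjusted p = 0.958), were not called.

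The arms of each hairpin were also set side by side by their calls, where 21.6% of all features were called. Both arms were tested for 82 hairpins. Both were called for 3 of them, miR-308 and miR-12 with both arms up and miR-1004 with both arms down, while 29 had 1 arm called. No hairpin had its arms called in opposite directions, which with 3 such hairpins says little. The 21.6% is a share of features, and how many hairpins it would give by itself was not computed. For miR-34, let-7, miR-263a, miR-2c and miR-193, one arm was called and the other was not, and whether the arms differ from each other was not tested.

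Ovary miRNAs set young replicate 3 apart. The arm miR-318-3p measured 18.7, 16.0 and 447 CPM in young heads and 14.4, 22.6 and 12.8 CPM in old heads, miR-994-5p 0.603, 0.637 and 55.0 against 0.695, 1.10 and 0.917 CPM, and miR-989-3p, which guides border cell migration in the egg chamber, 0.0928, 0.449 and 22.5 against 0.347, 0.548 and 0.518 CPM. The high value was young replicate 3 each time, and 0 of the 3 arms was called. The log2 differences of -3.27, -4.37 and -4.01 became -0.06, 0.55 and 0.73 without that library. It was left out because these arms were high in it, so their shift follows from that choice. The arm miR-956-3p, which is in the clock list, was high there as well, with 474, 393 and 2532 CPM in young and 292, 290 and 240 CPM in old heads. Its log2 difference was -2.05 (adjusted p = 0.0885) with and -0.66 (adjusted p = 0.0220) without young replicate 3, and it was also called without young replicate 1 (-2.42, adjusted p = 0.0456). The part of ovary RNA in these differences was not tested. In the miR-310 cluster 0 of 5 arms and in the miR-92/310 family 0 of 6 were called, and young replicate 3 was again the highest library for miR-311-3p (7.75, 5.73 and 48.9 CPM against 14, 10.5 and 5.94 CPM), miR-312-3p and miR-313-3p.

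**Figure D3:**
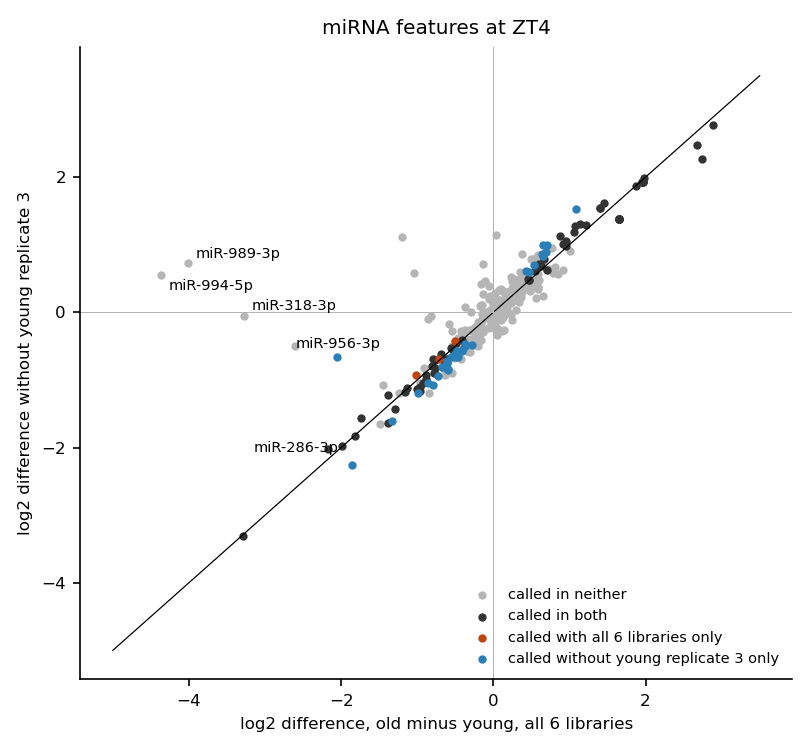
Log2 difference between old and young heads at ZT4 with all 6 libraries (horizontal axis) and without young replicate 3 (vertical axis), 1 point per tested miRNA feature, coloured by where it was called. Most points follow the diagonal. The ovary arms miR-318-3p, miR-994-5p and miR-989-3p leave it, from -3.27, -4.37 and -4.01 to values near or above 0. Young replicate 3 was left out because ovary miRNAs were high in it, so their shift follows from that choice.

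The early embryo list, the miR-309 cluster that clears maternal messenger RNAs, showed another split among the young libraries. Its 7 tested arms summed to 305, 55.5 and 245 CPM in young heads and to 68.6, 70.1 and 59.1 CPM in old heads. Young replicates 1 and 3 were high, although ovary miRNAs were low in young replicate 1. Most of it in those libraries was miR-286-3p, which had 267, 41.6 and 206 CPM against 40.0, 41.0 and 33.1 CPM and was called lower in old heads (-2.17, SE 0.61, adjusted p = 0.0449). Its call ended without young replicate 1 (adjusted p = 0.0812), old replicate 1 (0.127), old replicate 2 (0.118) or old replicate 3 (0.109). The other 6 arms were not called, among them miR-4-3p (-1.45, adjusted p = 0.105), miR-3-3p (-0.30, adjusted p = 0.526) and miR-5-5p (-0.02, adjusted p = 0.975).

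Of the testis list 0 of 6 arms were called, with summed levels of 10.7 to 12.0 CPM in young and 12.7 to 16.1 CPM in old heads. The muscle miRNA miR-1-3p measured 444, 294 and 488 CPM in young and 386, 639 and 456 CPM in old heads and was not called (0.27, adjusted p = 0.507). Of the miR-959 to miR-964 cluster the 1 tested arm, miR-960-5p, was below 1 CPM in every library and was not called (-1.49, adjusted p = 0.0860).

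Every called rr feature rose. With near-identical copies counted once in the same fit, 11 of 46 were called, all higher in old heads. Over all features, these 11 included, 25 of 293 were called higher in that count. A separate fit with the copies summed called 22 of 293 higher. Scarce features were not compared for copies. The features rr446445-3a-3p-miR and rr568858-1a-3p-miR, with the same values (1.40, adjusted p = 0.0373 each), therefore still count separately among the 11. The feature rr794157-1a-3p-miR rose from 10.9, 9.40 and 7.95 CPM to 59.9, 62.1 and 86.3 CPM, the largest rise at this level (2.88, SE 0.22, adjusted p = 0.000175), a 7.39-fold change. The feature rr767199-3a-5p-miR rose from 8.21, 7.79 and 7.88 CPM to 29.2, 33.0 and 25.5 CPM (1.88, SE 0.15, adjusted p = 0.000208). Both were called in all 18 settings that could test them. The feature rr527087-1a-5p-miR rose from 7.01, 9.02 and 10.9 CPM to 18.9, 19.0 and 21.7 CPM (1.14, SE 0.19, adjusted p = 0.0101) and was called with any 1 library left out.

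The most abundant rr feature, rr817650-3a-5p-miR, is 1 of 6 near-identical features tested. It rose from 303, 191 and 117 CPM to 753, 470 and 702 CPM (1.65, SE 0.37, adjusted p = 0.0227), and lost the call only without young replicate 2 (adjusted p = 0.0951) among the leave-outs. As a share of all miRNA counts, rr features made 0.166%, 0.122% and 0.0909% in young and 0.538%, 0.334% and 0.479% in old libraries. The groups did not overlap, and the exact 2-sided permutation test gave p = 0.1, the smallest possible with 3 against 3 (0.15 adjusted over 6 composition measures). The log2 difference of the share was 1.85, and 0.81 when the near-identical features were left out.

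Composition was also compared between the classes of small RNA. For each 1000 miRNA counts there were 9.08, 8.65 and 8.51 piRNA cluster counts in young and 16.0, 14.4 and 12.6 in old libraries, means of 8.75 ± 0.300 and 14.3 ± 1.71 (SD, n = 3 each) and a 1.63-fold difference (exact permutation p = 0.1, adjusted 0.15). Of the total behind the piRNA RPM, miRNAs made 46.5%, 45.4% and 44.9% in young and 24.7%, 27.4% and 25.8% in old libraries (exact permutation p = 0.1, adjusted 0.15). Old libraries thus had a lower miRNA share without overlap. The piRNA share of that total overlapped between ages, with means of 0.399% ± 0.0208 and 0.372% ± 0.0407 (SD, n = 3 each, exact permutation p = 0.6). What the rest of the total holds is not given in the sources used here.

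The piRNA tables give counts for 56 numbered clusters in a pair of column sets, called the first and the second set here, since nothing in the files tells them apart or places the clusters. Of 59 tested features 7 were called (11.9%), 2 higher (3.39%) and 5 lower (8.47%) in old heads. Cluster 10 rose in both sets. In the first set its counts were 6.5, 3.5 and 16.6 in young and 74.8, 83.6 and 68.0 in old libraries (2.96, SE 0.44, adjusted p = 0.0204), and in the second set 19.5, 7 and 17.5 against 78.5, 75.6 and 123 (2.45, SE 0.49, adjusted p = 0.0240). Every old library was above every young one by a wide margin, which over all tested piRNA features held, by any margin, for 6.78%, with 27.1% wholly below.

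The clearest fall was cluster 41 of the second set, with counts of 434, 483 and 447 in young and 120, 134 and 132 in old libraries (-2.07, SE 0.34, adjusted p = 0.0204). The young counts were alike, but relative to the scaled library size young replicate 3 was lower, with 1979, 2285 and 1327 CPM in young and 431, 432 and 463 CPM in old libraries. Cluster 44 of the first set had 89.5, 95.8 and 279 counts against 35.6, 34.9 and 33.5 (-2.24, SE 0.40, adjusted p = 0.0220), and cluster 70 of the first set 21.6, 19.9 and 76.8 against 5.93, 8.02 and 8.70 (-2.41, adjusted p = 0.0240). In both, young replicate 3 was the highest library, and the differences without it were -1.86 and -1.88 (adjusted p of 0.000132 and 0.000175). In the second set, cluster 48 (-2.24, adjusted p = 0.0434) and cluster 26 (-1.71, adjusted p = 0.0466) also fell.

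All 7 piRNA calls were made again without young replicate 3, where 19 of 59 features were called (32.2%), 6 higher (10.2%) and 13 lower (22%). None of the 7 was called without old replicate 1, old replicate 2 or old replicate 3, where edgeR called 0 features and 7 had an unadjusted p under 0.05 each time. The adjusted p of the 7 there was at most 0.263. Without young replicate 1 there were 6 calls, cluster 26 being lost (adjusted p = 0.0907), and without young replicate 2 there were 7.

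Young replicate 3 also stood apart in the second piRNA set. For each 1000 miRNA counts the second set gave a log2 difference of -0.35 with and 0.44 without that library. It summed to 2804, 2641 and 14051 counts in young and 2682, 2997 and 2787 counts in old libraries, and 18 of its 32 tested features had their highest CPM in young replicate 3, as did 10 of the 27 tested features of the first set. Cluster 49 of the second set had 83.7, 83.7 and 2041 counts against 66.3, 87.2 and 80.3, and cluster 57 of the second set 199, 181 and 2842 against 143, 189 and 166. Neither was called with all libraries (adjusted p = 0.184 each), and without young replicate 3 both were called lower, with smaller differences (-0.56 and -0.64, adjusted p of 0.0380 and 0.0232). The ovary miRNAs were high in the same library, and their part in these counts was not tested. The most abundant cluster, cluster 51 of the first set, had 126744, 136807 and 116663 counts against 153831, 170685 and 158746. It was not called with all libraries (0.08, adjusted p = 0.904) and was called lower without young replicate 3 (-0.16, adjusted p = 0.0396), while with miRNA library sizes it read 0.49 (adjusted p = 0.146). Cluster 90 of the first set read 0.05 with all libraries (adjusted p = 0.904) and -0.18 without young replicate 3 (adjusted p = 0.0237).

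**Figure D4:**
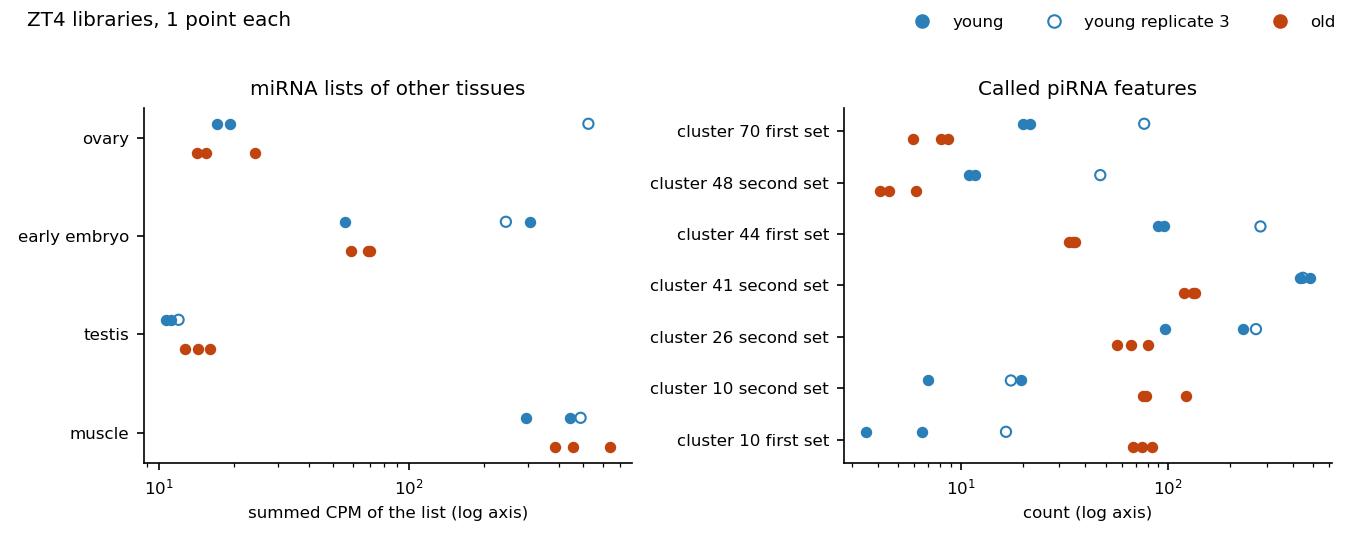
Left, summed CPM (log axis) of the miRNA lists of ovary, early embryo, testis and muscle, and right, counts (log axis) of the called piRNA features, in each of the 6 ZT4 libraries, with young in blue, young replicate 3 as an open circle and old in orange. Young replicate 3 has 524 CPM of ovary miRNAs against 14.2 to 24.2 CPM elsewhere, and it is high in the early embryo list together with young replicate 1.

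Whether the age difference at ZT4 was unlike that at other times was tested as ZT4 minus the mean of ZT0, ZT8, ZT12, ZT16 and ZT20. Of 363 miRNA features 0 were called in edgeR (0%), 19 had an unadjusted p under 0.05, and DESeq2 called 1. The 1 was miR-286-3p, the smallest p in edgeR as well (-1.85, SE 0.43, adjusted p = 0.0699). It was called without young replicate 2 (-2.31, adjusted p = 6.2e-05), together with miR-5-5p and the 3 entries for miR-6-3p of the same cluster, and had an adjusted p of 0.522 without young replicate 3. Its age difference at the other times was -0.60 to 0.17. The next smallest p belonged to miR-4-3p, miR-958-3p, miR-994-5p and miR-5-5p (adjusted p of 0.482 to 0.536), of which miR-958-3p was too scarce at ZT4 for the 6-library test. Of 85 piRNA features 0 were called (0%), 21 had an unadjusted p under 0.05, and without young replicate 3 that number was 0. DESeq2 called 0 of them.

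The steady ZT4 differences had the same direction around the day. Of the 69 miRNA calls 65 had their ZT4 direction at all 5 other times, and the share over all tested features is not given here. The difference of miR-2c-5p was -2.16 to -1.92 at the other times, that of miR-193-5p -1.95 to -1.78, that of miR-308-3p 1.31 to 1.72 and that of rr794157-1a-3p-miR 2.75 to 3.23. Cluster 10 of the first set was higher in old heads by 3.05 to 4.48 and cluster 41 of the second set lower, at -2.42 to -1.59. The arm miR-998-3p had a range of -1.17 to 0.19 and miR-284-3p of -1.07 to 0.76, so their directions were not the same at every time.

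**Figure D5:**
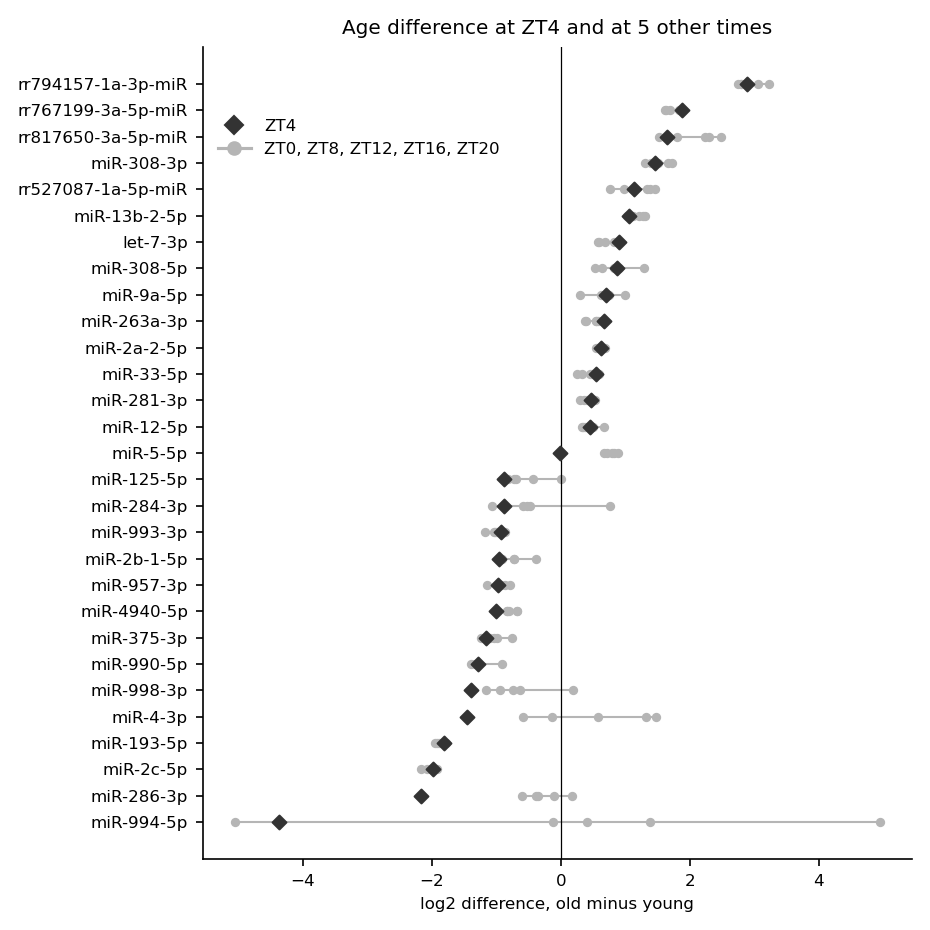
Log2 difference between old and young heads at ZT4 (diamonds) and at ZT0, ZT8, ZT12, ZT16 and ZT20 (grey points joined by a line) for the named rises and falls and for the miRNAs with the smallest p in the test against the other times. For miR-2c-5p, miR-193-5p and miR-308-3p all 6 values lie close together, while miR-286-3p at ZT4 (-2.17) lies apart from its range of -0.60 to 0.17.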

How the data were processed

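Small RNA libraries were made with the Illumina TruSeq kit and a blocking oligonucleotide against the 30 nt fragment of 2S rRNA, per the labels. The submitters' processing notes name Bowtie and the builds BDGP6 and dm6, with no version. The authors deposited expected counts per miRNA arm and per piRNA cluster, with fractions and no stated definition. They also deposited both as RPM. The miRNA RPM divides by the miRNA total of the library and the piRNA RPM by a larger total, as the values show.

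Expected counts of the 6 ZT4 libraries were rounded and tested with edgeR 4.0.16 (R 4.3.3), as a quasi-likelihood fit with TMM factors on full-table totals and filterByExpr over both ages. Benjamini-Hochberg adjustment covered all tested features of a table. CPM are on the TMM scale. Shares were compared with exact 2-sided permutation tests. The test against other times, and the age differences given for those times, used a 36-library fit. Alternatives included DESeq2 1.42.0 and limma 3.58.1 on log2(RPM + 1). The fits were tested on simulated data. Near-identical copies correlate above 0.999 with totals within 2%, and were sought only above a minimum total over the 36 libraries. Counting precision is limited by the totals given, and reads without molecular identifiers are not independent molecules.

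Named miRNA features were the 12 largest rises and falls (10 rises existed) and the 4 largest rr rises among called, non-overlapping features of at least 10 CPM, the 10 most abundant arms, up to 3 per list by smallest p, the 5 smallest p against other times and those that moved most or lost the call without young replicate 3. For piRNA they were the called features of at least 10 counts, the 4 highest per set and the 3 smallest p against other times. Members and lists were chosen with earlier results of these data known. Hairpin positions are from the BDGP6 annotation, which matched 258 of 264 tested miRBase-named features.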

Additional observations from a re-analysis of the deposited data

How the results depend on the processing

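The miRNA calls at ZT4 numbered 69 in the fit reported and 52 to 93 with RLE factors, DESeq2, library totals alone, limma, the robust fit and the 36-library fits, but 168 when scaled to the total behind the piRNA RPM, 44 with no filter, 38 with a filter at 10 CPM, 38 with near-identical copies summed, 31 without rr features and 23 to 101 with 1 library left out (young replicate 2 and young replicate 3 giving the ends). Near-identical copies add calls that are not independent, and fewer features were tested in the last 3 of the settings that keep all libraries. The replicate block gave 41 miRNA calls, and 1 call in the test against other times, and 3 piRNA calls. The libraries were not treated as pairs, since replicate numbers have no stated shared origin, the deviations of same-numbered libraries correlated at 0.187, -0.106 and 0.110, and not every library correlated best with its own number.

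In the test against the other times 1 miRNA feature was called with DESeq2, 1 with the 10 CPM filter and 0 to 5 with 1 library left out, all members of the miR-309 cluster. The piRNA calls numbered 7 and became 1 with library totals alone, 1 when scaled to the total behind the RPM, 1 with no filter, 2 with limma, 3 with miRNA library sizes, 13 with all 36 libraries, 12 without the 3 ovary-rich libraries and 0 to 19 with 1 library left out. Those libraries are replicate 3 of the young at ZT4 and at ZT8 and replicate 1 of the old at ZT0, and that fit was chosen after seeing the data. For the counts that moved, the cause was not tested beyond the number of features or libraries.

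Scaled to the total behind the piRNA RPM, the log2 differences that changed sign were miR-33-5p -0.035, miR-281-3p -0.13, miR-12-5p -0.14, miR-8-3p -0.34, miR-263a-5p -0.48, miR-100-3p -0.12, miR-304-3p -0.22, miR-9b-5p -0.19, miR-1-3p -0.32 and miR-982-5p -0.20, and -0.079, -0.11 and -0.11 for clusters 51 and 90 of the first and 75 of the second set. Values near 0 changed sign often. With RLE factors, totals alone, no filter, the 10 CPM filter, DESeq2, limma, no rr features and summed copies, miR-14-3p read 0.020, 0.20, 0.055, 0.12, 0.020, 0.18, 0.15 and 0.072, and miR-5-5p 0.028, 0.20, 0.057, 0.13, 0.028, 0.30, 0.16 and 0.066, with 0.091 under the block. With totals alone and limma miR-9c-5p read 0.021 and 0.025. Cluster 90 of the first set read -0.0049 with totals alone, and limma gave -0.082, -0.11 and -0.081 for clusters 51, 90 and 75.

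Without the 3 ovary-rich libraries the changed signs were miR-263a-5p -0.27, miR-311-3p 0.56, miR-313-3p 1.10, miR-994-5p 0.52, miR-989-3p 0.70 and miR-5-5p 0.14, with -0.15, -0.18 and -0.011 for clusters 51, 90 and 91 of the first set, and 0.16 for miR-994-5p against the other times. Over the 6 leave-outs the ranges were -0.25 to 0.17 for miR-14-3p, -0.24 to 0.42 for miR-263a-5p, -1.49 to 0.59 for miR-311-3p, -1.69 to 1.12 for miR-313-3p, -4.93 to 0.55 for miR-994-5p, -4.58 to 0.73 for miR-989-3p, -0.51 to 0.0018 for miR-3-3p and -0.34 to 0.19 for miR-5-5p. They were -0.16 to 0.26, -0.18 to 0.22 and -0.014 to 0.47 for clusters 51, 90 and 91 of the first set, -0.0069 to 0.21 for cluster 75 of the second set and -5.29 to 0.31 for miR-994-5p against the other times. Young replicate 3 set the changed sign of the ovary and miR-310 cluster arms.

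List medians shifted with the median over all features when totals alone were used, to 0.18 for the let-7 complex, -0.12 for the miR-34 cluster, 0.51 for the miR-12 cluster, -1.26 for miR-960-5p, 0.25 for K box arms, 0.24 for miR-9/79 arms, 0.11 for ageing arms, -0.14 for clock arms, 0.034 for neuron arms, 0.35 for eye arms, 0.40 for fat body arms, 0.11 for immune arms, -0.079 for mirtrons and 0.67 for testis arms. Without young replicate 3 they became 0.44 for the miR-12 cluster, 0.59 for the miR-310 cluster, -1.65 for miR-960-5p, 0.35 for miR-9/79 arms, 0.36 for miR-92/310 arms, -0.29 for neuron arms, -0.48 for mirtrons, 0.55 for ovary arms and 0.62 for testis arms. The old to young log2 difference of the rr share was 0.81 without the near-identical copies, against 1.85 with them. The second-set piRNA measure read 0.44 without young replicate 3. The composition measures other than the rr share moved by less than the spread between replicates in the alternatives run. Of single named values 1238 kept direction and side of the threshold, 270 lost the call, 56 gained it and 66 changed sign. Counting error is largest for arms under 1 CPM and for the scarce piRNA features.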
